A study of Homo sapiens with 6 samples.

Results

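Long-chain acyl-CoA synthetases activate fatty acids, and LPCAT3, the lipoxygenases, POR and SAT1 act later in, or feed into, the peroxidation of the lipids that carry them. These genes were followed in 6j treated and non-treated MHCC-97H cells. The members were the rows of the count table whose symbol was ACSL1, ACSL3, ACSL4, ACSL5, ACSL6, LPCAT3, ALOX5, ALOX15, POR or SAT1, which gave 10 genes of 25445 rows. MHCC-97H is an established human hepatocellular carcinoma cell line. The 6j treated group received 10 μM of compound 6j, a sophoridine derivative, for 16 h, and the non-treated group received the solvent alone for 16 h. Both groups were grown in the same serum-containing medium, and the labels name no genetic change in either. Each group had 3 libraries of oligo(dT)-selected mRNA, numbered 1 to 3. The labels do not say whether these came from separate cultures, so the p-values measure only the spread between libraries. A single cell line, dose and time were measured.

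The ACSL enzymes join coenzyme A to long-chain fatty acids, which traps the fatty acid in the cell and lets it enter oxidation, storage or membranes. ACSL4 prefers arachidonate and related polyunsaturated fatty acids, and LPCAT3 places such acyl chains into membrane phospholipids, where ALOX enzymes or radical reactions can oxidise them. POR passes electrons from NADPH to microsomal cytochromes P450, and SAT1 acetylates spermidine and spermine. ACSL4, LPCAT3 and POR are known as promoters of ferroptosis, the iron-dependent cell death that follows lipid peroxidation.

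The total count was 31533403 to 37919879 in non-treated libraries (median 35216147) and 35002336 to 38018349 in 6j treated libraries (median 36940298). Levels are given in CPM, the count of a gene scaled to a common library total that was adjusted by normalization factors (TMM). In a library, 3 counts, the limit that a count of 0 allows, correspond to 0.0781 to 0.0952 CPM. This limit covers counting error only. Of 12 hepatocyte and hepatocellular carcinoma markers, 3 had a median of 1 CPM or more, namely KRT8 (486 CPM), KRT18 (377 CPM) and HNF4A (1.15 CPM). TTR, FOXA2, GPC3 and EPCAM had no count in any library, and ALB, AFP, APOA1, APOB and SERPINA1 did not exceed 0.262 CPM. The summed hepatocyte list was 905 to 1110 CPM in non-treated and 706 to 825 CPM in 6j treated libraries, and its part in the results below was not tested. Of 8 blood, endothelial and stromal markers, 4 (CD68, COL1A1, COL3A1 and ACTA2) had a median of 1 CPM or more, while PTPRC and LYVE1 had no count. That list summed to 312 to 373 CPM in non-treated and 294 to 359 CPM in 6j treated libraries. No marker of either list was called by edgeR, with or without the replicate block, or by DESeq2. The unadjusted edgeR p was under 0.05 for 2 of the 3 tested hepatocyte markers and for 0 of the 5 others, and KRT8 lay just below the fold threshold (log2 fold change −0.58, adjusted p = 0.0211). In bulk RNA, fewer cells of a kind and less RNA per cell cannot be told apart.

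A gene was called when its Benjamini-Hochberg adjusted p, taken over all 15957 rows tested, was under 0.05 and its fold change was above 1.5. Of the 10 genes, 7 passed the filter on low counts, and ACSL6, ALOX5 and ALOX15 did not. None of the 7 was called by edgeR's quasi-likelihood test, against 3.60% of all rows tested. No member had an adjusted p under 0.05 at any fold change (9.16% of rows), and 3 had an unadjusted p under 0.05 (26.2% of rows), namely ACSL1, ACSL4 and SAT1. What a replicate number marks is not stated. Over all rows tested, deviations from the group means correlated at 0.171 to 0.312 for the same number and at most 0.0795 for different numbers. With 3 libraries a group, this does not establish a pairing. The edgeR test with the replicate number as a block called 1 member, ACSL1 (6.47% of rows). With that block ACSL1, ACSL3 and ACSL4 had an adjusted p under 0.05 at any fold change (26.9% of rows in either direction, and 13.1% higher). DESeq2 called 1 member, again ACSL1, against 5.52% of the rows to which it gave an adjusted p. Whether a member was called therefore depended on the model.

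**Figure D1:**
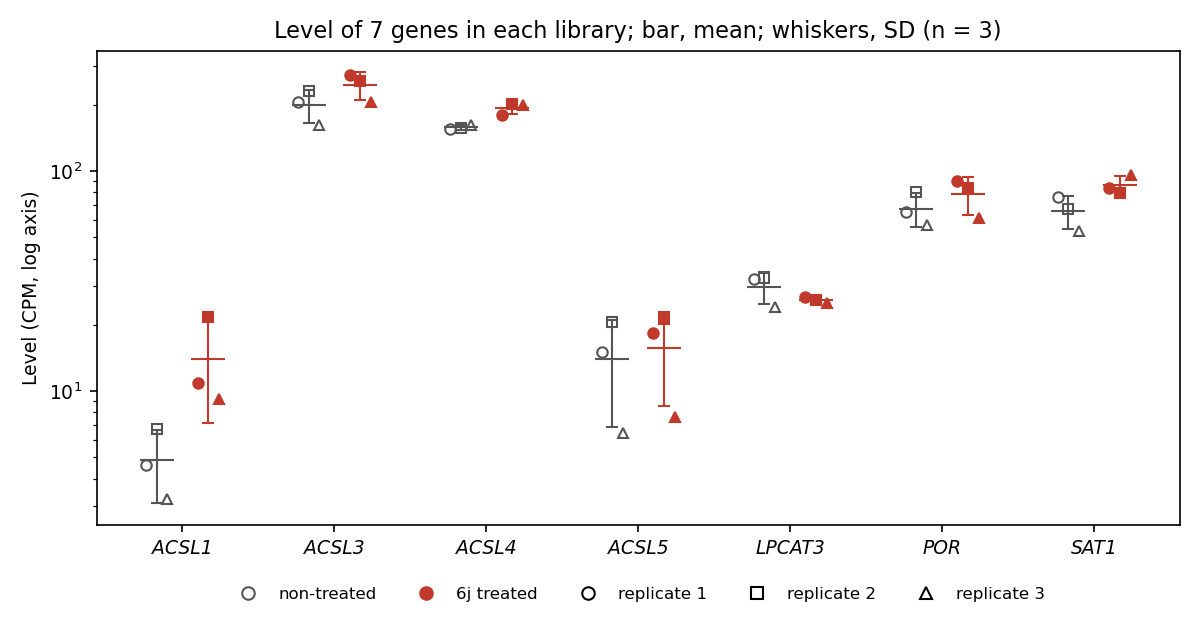
Level of the 7 tested genes in each library, in CPM on a log axis, with points for libraries (numbers 1 to 3), a bar for the group mean and whiskers for the SD. The 6j treated libraries of ACSL1 (9.23 to 21.7 CPM), ACSL4 (179 to 201 CPM) and SAT1 (79.6 to 96.0 CPM) lie above the non-treated libraries, while the other genes overlap between the groups.

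ACSL1 was the member with the largest difference. ACSL1 (ENSG00000151726, GRCh38 chr4:184755595-184826818, minus strand) is the main acyl-CoA synthetase of liver and fat in normal tissue. Its level was 4.62, 6.76 and 3.25 CPM in non-treated libraries 1 to 3 and 10.9, 21.7 and 9.23 CPM in 6j treated libraries 1 to 3. Every 6j treated library was above every non-treated library, and replicate 2 was the highest in both groups. The raw counts behind these levels were 174, 213 and 113 in non-treated and 419, 822 and 317 in 6j treated libraries. The means were 4.87 ± 1.77 and 13.96 ± 6.79 CPM (SD, n = 3). The edgeR log2 fold change was 1.52 (SE 0.396) with an adjusted p of 0.0583. With the replicate block the log2 fold change was 1.48 (SE 0.145) and the adjusted p 4.37e-05, and ACSL1 rose in that model. The ratio of 6j treated to non-treated was 2.36, 3.22 and 2.84 for numbers 1, 2 and 3, so the gain was alike within each number although the levels differed between numbers. DESeq2 gave an adjusted p of 0.000151, and over 17 alternatives the adjusted p ran from 1.80e-10 to 0.212. The fold change was at the 99.1 percentile of all rows tested, whereas ACSL1 ranked 1686 by p in the fit without the block. Leaving out 1 library at a time moved the log2 fold change between 1.05 and 1.83, and without 6j treated replicate 3 ACSL1 was called (adjusted p = 0.0494).

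ACSL3 and ACSL4 were the abundant synthetases of these cells, and both had higher mean levels with 6j. ACSL3 (ENSG00000123983, chr2:222860934-222944639, plus strand), an endoplasmic reticulum and lipid droplet enzyme that activates monounsaturated fatty acids, had 206, 230 and 162 CPM in non-treated and 274, 256 and 206 CPM in 6j treated libraries. The groups overlapped, but the difference was positive within each replicate number, by 0.41, 0.16 and 0.35 on the log2 scale. Its log2 fold change was 0.30 (SE 0.146, edgeR adjusted p = 0.232), and with the replicate block 0.31 (SE 0.0659, adjusted p = 0.00527). ACSL4 (ENSG00000068366, chrX:109624244-109733403, minus strand) had 154, 157 and 162 CPM in non-treated and 179, 201 and 199 CPM in 6j treated libraries. The groups did not overlap, and the non-treated libraries lay close together (158 ± 3.63 CPM, SD, n = 3). The log2 fold change of ACSL4 was 0.29 (SE 0.0781, edgeR adjusted p = 0.0507), and with the replicate block it was 0.29 (SE 0.0618, adjusted p = 0.00534). Leaving out 1 library at a time moved the adjusted p of ACSL4 between 0.0324 and 0.199. The adjusted p over all 17 alternatives was 0.000285 to 0.473 for ACSL3 and 0.000374 to 0.199 for ACSL4. Both differences were below the 1.5-fold threshold. In the edgeR model with the block, the adjusted p was 0.0590 for ACSL3 without number 1 (log2 fold change 0.25). It was 0.0657 for ACSL4 without number 2 (0.26). These fits hold fewer libraries, so the higher adjusted p does not show that a difference rested on a single replicate number. ACSL4 shares exon sequence on its strand with KCNE5, whose level was 0.776 ± 0.369 CPM in non-treated and 1.22 ± 0.410 CPM in 6j treated cells (SD, n = 3).

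ACSL5 and ACSL6 gave no call. ACSL5 (ENSG00000197142, chr10:112374018-112428380, plus strand), found on mitochondria and endoplasmic reticulum, had 15.02, 20.5 and 6.43 CPM in non-treated and 18.5, 21.2 and 7.63 CPM in 6j treated libraries. Replicate 3 was the lowest in both groups, so the group means of 13.99 ± 7.10 and 15.8 ± 7.19 CPM (SD, n = 3) carry a spread far larger than their difference. The log2 fold change was 0.18 (SE 0.566, edgeR adjusted p = 0.890), and its sign turned when non-treated replicate 3 (−0.17) or 6j treated replicate 2 (−0.10) was left out. Within replicate numbers the differences were 0.30, 0.05 and 0.24, and with the replicate block the adjusted p was 0.229. ACSL5 overlaps exons of ZDHHC6 on the opposite strand. ACSL6 (ENSG00000164398, chr5:131949973-132012243, minus strand), the brain-type synthetase, had 0 counts in all 6 libraries, so it was not detectable at this depth.

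**Figure D2:**
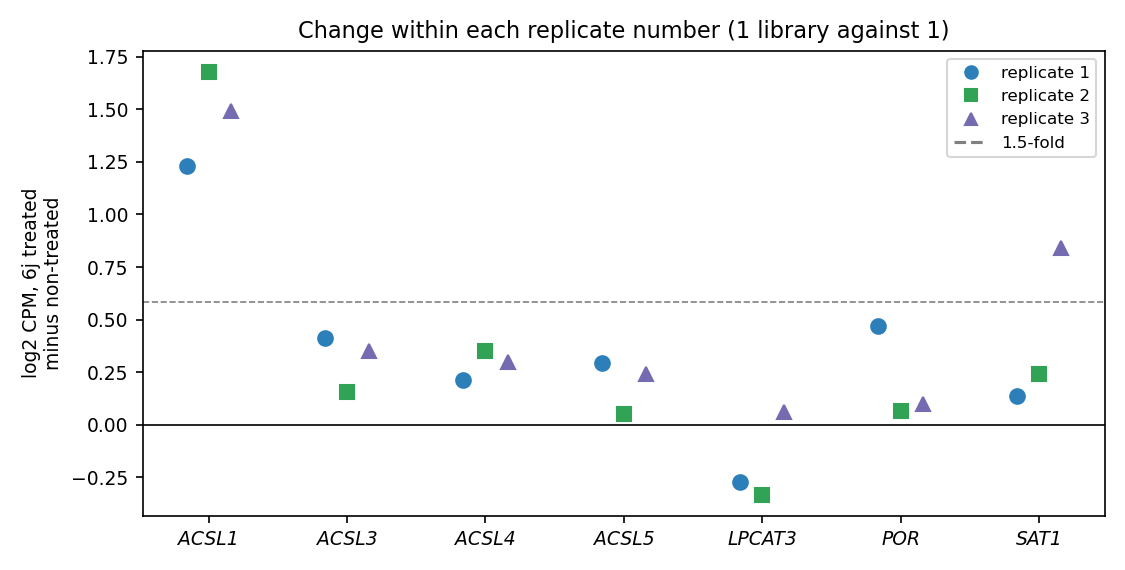
Difference between the 6j treated and the non-treated library of the same replicate number for the 7 tested genes, as log2 CPM. A point stands for each replicate number, and the dashed line is the 1.5-fold threshold. ACSL1 lies above the threshold in replicates 1, 2 and 3 (1.23, 1.68 and 1.49), whereas LPCAT3 lies below 0 in replicates 1 and 2 (−0.27 and −0.33) and above it in replicate 3 (0.06).

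Among the genes that act after activation, none was called. LPCAT3 (ENSG00000111684, chr12:6976186-7018510, minus strand), the acyltransferase that inserts arachidonate into phospholipids, had 32.4, 32.8 and 24.0 CPM in non-treated and 26.8, 26.1 and 25.1 CPM in 6j treated libraries. It was the only tested member with a negative log2 fold change, −0.20 (SE 0.130, edgeR adjusted p = 0.387). The SD of the 6j treated libraries was 0.848 CPM, and the non-treated group was wider because replicate 3 was low (29.7 ± 4.93 CPM, SD, n = 3). LPCAT3 overlaps exons of EMG1 on the opposite strand, and EMG1 was 82.6 ± 4.02 CPM in non-treated and 70.7 ± 7.12 CPM in 6j treated cells. The lipoxygenases, which add oxygen to polyunsaturated fatty acids, were at the limit of detection. ALOX5 (ENSG00000012779, chr10:45374176-45446119, plus strand) had 0, 2 and 7 counts in non-treated and 0, 0 and 2 in 6j treated libraries. ALOX15 (ENSG00000161905, chr17:4630902-4642294, minus strand) had 3, 4 and 2 counts in non-treated libraries and none in any 6j treated library. With 9 counts in all for ALOX15 and 11 for ALOX5, no fold change was given, and a difference was not detectable at this depth. When the filter was dropped, edgeR's adjusted p was 0.299 for ALOX15 and 0.618 for ALOX5.

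POR and SAT1, which act on electron supply and on polyamines, were measured at moderate levels. POR (ENSG00000127948, chr7:75899200-75986855, plus strand) had 65.1, 80.3 and 57.1 CPM in non-treated and 90.2, 84.0 and 61.3 CPM in 6j treated libraries. The groups overlapped, and the log2 fold change of 0.22 (SE 0.169) had an edgeR adjusted p of 0.467. Most of that difference came from replicate 1, where it was 0.47, against 0.07 and 0.10 in replicates 2 and 3. SAT1 (ENSG00000130066, chrX:23783173-23786226, plus strand) had 75.9, 67.2 and 53.6 CPM in non-treated and 83.5, 79.6 and 96.0 CPM in 6j treated libraries. Every 6j treated library was above every non-treated library, with means of 65.6 ± 11.2 and 86.3 ± 8.54 CPM (SD, n = 3). The log2 fold change of SAT1 was 0.40 (SE 0.131, edgeR adjusted p = 0.0943), and DESeq2 gave an adjusted p of 0.0359 at a fold change below 1.5. The difference of SAT1 was 0.14 and 0.24 in replicates 1 and 2 and 0.84 in replicate 3. With the replicate block its adjusted p was 0.161 in edgeR and 0.00576 in DESeq2, and over 17 alternatives it ran from 0.00576 to 0.267. The exons of POR overlap those of TMEM120A on the opposite strand, and the counts are not stated to use strand.

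Among the 7 tested genes, 6 had a log2 fold change above 0 and 1 below it, where 50.7% of all rows tested were above 0. Their median was 0.29, beside 0.0046 for all rows. ACSL1, ACSL4 and SAT1 had 6j treated libraries all above non-treated libraries (16.0% of rows), and no tested member had them all below (15.8% of rows). A difference above 0 in all 3 replicate numbers was found for 6 members (28.4% of rows), and below 0 in all 3 for no member (28.7% of rows). These counts describe 7 chosen genes that share the same 6 libraries.

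**Figure D3:**
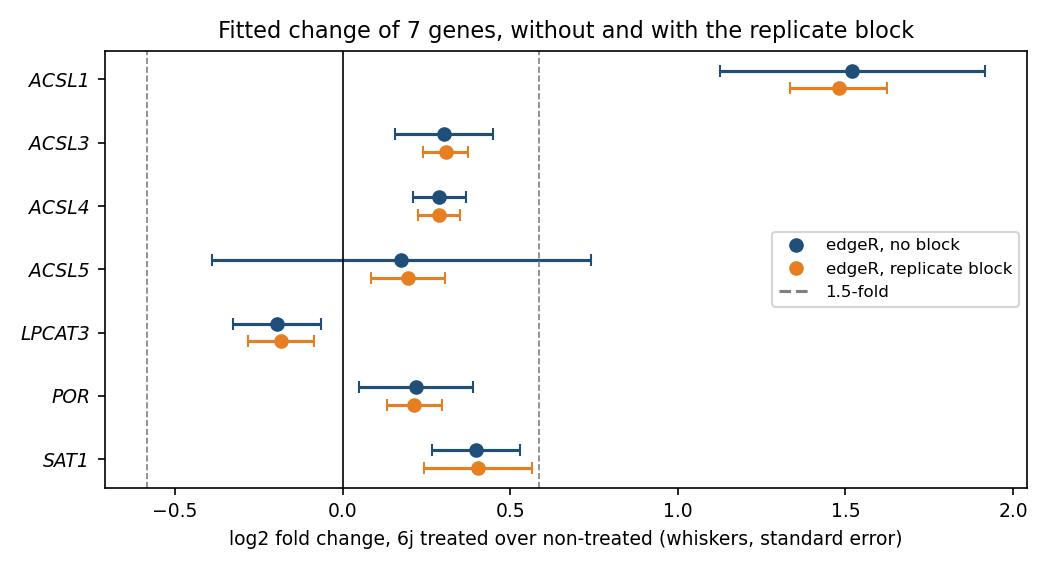
edgeR log2 fold change of 6j treated over non-treated for the 7 tested genes, fitted without a block and with a block for the replicate number, with whiskers of 1 standard error. The estimates hardly move between the fits (ACSL1 1.52 and 1.48), while the whisker of ACSL1 shortens from 0.396 to 0.145 and that of SAT1 does not shorten (0.131 and 0.162).

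To compare levels between genes, CPM was divided by the exon length of each gene. In non-treated cells the levels per kilobase were 27.5 ± 4.75 for ACSL3, 26.3 ± 4.50 for SAT1 and 24.6 ± 0.566 for ACSL4 (CPM per kilobase, SD, n = 3), which do not differ beyond their spread. POR followed with 11.04 ± 1.92, LPCAT3 with 6.29 ± 1.04, ACSL5 with 3.30 ± 1.68 and ACSL1 with 0.776 ± 0.282 CPM per kilobase. In 6j treated cells ACSL1 reached 2.22 ± 1.08 CPM per kilobase, and ACSL5 had 3.72 ± 1.70. Within each 6j treated library ACSL1 stayed below ACSL5. ACSL1 had 1.74, 3.46 and 1.47 CPM per kilobase in 6j treated libraries 1 to 3, and ACSL5 had 4.36, 5.01 and 1.80. With the longest transcript as length, ACSL1 and ACSL5 were nearly equal in 6j treated replicate 3 (2.88% and 2.89% of the summed ACSL level). The place of SAT1 depended on the length used, since with its longest transcript it stood at 57.8 CPM per kilobase in non-treated cells, above ACSL3 (35.1) and ACSL4 (29.6).

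The composition of the ACSL transcript pool was followed within each library. The summed level of the 5 ACSL genes was 56.7, 62.2 and 49.6 CPM per kilobase in non-treated and 71.8, 75.1 and 62.7 in 6j treated libraries, so the groups did not overlap. ACSL3 took 48.7% of the pool in non-treated and 48.4% in 6j treated cells, and ACSL4 took 44.2% and 43.3%. ACSL5 held 5.70% and 5.20%. The share of ACSL1 was 1.30%, 1.73% and 1.04% in non-treated and 2.42%, 4.60% and 2.34% in 6j treated libraries, with means of 1.36 ± 0.347% and 3.12 ± 1.29% (SD, n = 3). It gained 1.12, 2.88 and 1.30 percentage points within replicates 1, 2 and 3, and the mean gain of 1.77 was 1.02 without 6j treated replicate 2. The exact two-sided permutation test gave p = 0.1, which is the smallest p that 3 against 3 libraries allow (0.2 after adjustment over the 4 comparisons of this kind). The share of ACSL4 changed by −0.945 percentage points (exact permutation p = 0.7), and this sign turned when non-treated replicate 3 (2.34) or 6j treated replicate 1 (1.27) was left out. The difference between ACSL1 and ACSL3 within a library, in log2 CPM, grew by 1.16 (exact permutation p = 0.1) and by 0.82, 1.52 and 1.14 in replicates 1, 2 and 3. The difference between ACSL4 and ACSL3 moved by −0.02 (exact permutation p = 0.9), with −0.20, 0.19 and −0.05 by number. Thus ACSL1 was higher relative to ACSL3 in every replicate number, while ACSL4 and ACSL3 showed no common direction relative to each other.

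**Figure D4:**
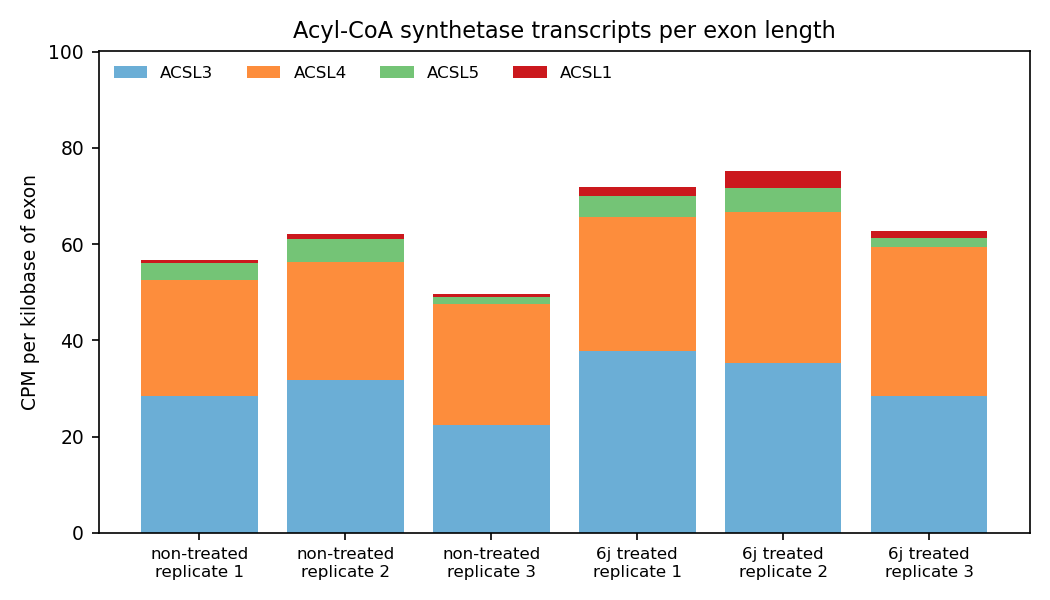
Stacked levels of the ACSL genes in each of the 6 libraries, in CPM per kilobase of exon. ACSL3 and ACSL4 make up most of every bar, and the thin ACSL1 band is 1.04% to 1.73% of the pool in non-treated and 2.34% to 4.60% in 6j treated libraries.

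The stretches before the start sites of the 3 members with an adjusted p under 0.05 in the edgeR model with the replicate block, and of SAT1, are shown. SAT1 had an adjusted p of 0.161 in that model and 0.0359 in DESeq2 without the block. POR had 0.0804 in the edgeR model with the block, and no window was given for it. RefSeq (GRCh38.p14) gave a window of 250 bases before the start for 7 of the 10 genes (ACSL1, ACSL3, ACSL4, ACSL5, ACSL6, LPCAT3 and SAT1), in 18 windows, since a gene can have several starts. Each sequence is printed 5′ to 3′ on the strand of the gene, from the window of the outermost start in the RefSeq table and outside annotated exons. GENCODE also holds ACSL1 transcripts that start farther 5′, so the ACSL1 stretch lies inside the gene bounds given above. Capitals mark GGGCGG, the GC box bound by SP family factors, on either strand. The positions are chr4:184826120-184826218 (minus) for ACSL1, chr2:222860786-222860933 (plus) for ACSL3, chrX:109733404-109733507 (minus) for ACSL4 and chrX:23782923-23783172 (plus) for SAT1.
ACSL1: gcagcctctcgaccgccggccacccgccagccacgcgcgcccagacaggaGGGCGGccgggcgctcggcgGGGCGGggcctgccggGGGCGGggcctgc
ACSL3: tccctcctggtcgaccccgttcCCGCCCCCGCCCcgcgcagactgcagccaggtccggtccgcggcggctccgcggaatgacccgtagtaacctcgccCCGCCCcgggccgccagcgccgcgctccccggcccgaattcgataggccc
ACSL4: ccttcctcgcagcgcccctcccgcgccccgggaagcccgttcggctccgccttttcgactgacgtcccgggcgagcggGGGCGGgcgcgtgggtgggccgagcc
SAT1: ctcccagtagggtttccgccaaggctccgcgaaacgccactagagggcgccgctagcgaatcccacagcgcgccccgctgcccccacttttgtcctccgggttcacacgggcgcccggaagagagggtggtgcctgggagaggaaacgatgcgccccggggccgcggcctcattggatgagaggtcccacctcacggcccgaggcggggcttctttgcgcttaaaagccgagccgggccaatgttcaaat

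The ACSL1, ACSL3 and ACSL4 stretches held 3, 3 and 1 GC boxes, and the SAT1 stretch held none. Their GC content was 85.9%, 77.0%, 78.8% and 66.4%. A GC box was present in 8 of the 18 windows of the members and in 42.6% of all 35116 windows. The core of the amino acid response element, TGATGNAA, was in none of the 18 windows (3.14% of all windows), nor was the cyclic AMP response element TGACGTCA (1.65%). The core of the antioxidant response element, TGACNNNGC, was in 4 windows (10.9% of all), of which 1 belonged to ACSL1, 1 to ACSL5 and 2 to overlapping windows of ACSL6 that share the same site. The sterol response element TCACNCCAC was in 2 windows, 1 of ACSL1 and 1 of ACSL6 (0.883% of all). All motifs were searched on both strands, and the ACSL1 matches lay before another of its 5 starts than the sequence shown. These ACSL1 matches share letters with each other, and 235 of the 250 bases of their window lie in annotated exons. A match says only that these letters are present.

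Genes that act beside the members were taken from 9 lists, of which 120 genes were tested. Of these, 8 were called higher and 2 lower by edgeR, against 3.60% of all rows, and their median log2 fold change was −0.01. The lists were written with earlier results of these data known, so these counts are a description only. SCD and FABP5 were called in all 6 fits that left out 1 library. The count of 10 fell to 2 without non-treated replicate 1 and to 2 without 6j treated replicate 2, and to 6 without non-treated replicate 3. With the replicate block 8 were called higher and 3 lower.

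Among the other acyl-CoA synthetases 1 of 15 tested genes rose. This was ACSS2, which activates acetate, with 57.4 ± 17.4 CPM in non-treated and 117 ± 14.7 CPM in 6j treated cells (SD, n = 3; log2 fold change 1.03, adjusted p = 0.0371). SLC27A2, a very long-chain synthetase and transporter, had a log2 fold change of −0.32 (adjusted p = 0.0468) and ACSF2, a mitochondrial synthetase, of −0.34 (adjusted p = 0.0636). Of 16 thioesterases, which release the fatty acid again, and acyl-CoA binding proteins, 1 rose and 1 fell. The thioesterase ACOT7 fell from 42.3 ± 3.78 to 23.5 ± 5.23 CPM (log2 fold change −0.85, adjusted p = 0.0147), and the Golgi acyl-CoA binding protein ACBD3 rose from 96.5 ± 7.68 to 148 ± 18.0 CPM (0.62, adjusted p = 0.0120). ACBD5, a peroxisomal member, had a log2 fold change of 0.29 (adjusted p = 0.0966).

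Fatty acid binding, uptake and carnitine transfer showed 1 called gene of 10. The fatty acid binding protein FABP5 fell from 35.1, 35.1 and 35.8 CPM in non-treated to 21.9, 19.97 and 20.5 CPM in 6j treated libraries (log2 fold change −0.77, adjusted p = 0.0037). CROT, a peroxisomal carnitine acyltransferase, had −0.43 (adjusted p = 0.171) and CPT2, the inner mitochondrial carnitine palmitoyltransferase, −0.20 (adjusted p = 0.344). Among 15 lysophospholipid acyltransferases and phospholipases A2, LPCAT1 rose, from 119 ± 15.6 to 180 ± 29.7 CPM (log2 fold change 0.59, adjusted p = 0.0361). LPCAT1 forms saturated phosphatidylcholine, was called in only 1 of the 6 fits that left out a library, and with the replicate block its fold change was below the threshold (0.58). PLA2G4A, which releases arachidonate, had a log2 fold change of −0.45 (adjusted p = 0.0310) and LPCAT4, another acyltransferase, of −0.45 (adjusted p = 0.0329), both within the 1.5-fold threshold.

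All 10 tested genes of polyunsaturated and ether lipid synthesis had a log2 fold change above 0 (50.7% of all rows), with a median of 0.25. Of these, 2 were called (3.60% of all rows). All 10 also stayed above 0 under each of the 3 other scalings, and 9 or 10 did when 1 library was left out. These fits reuse the same 6 libraries. FADS1, the desaturase that completes arachidonate, had 193, 208 and 177 CPM in non-treated and 268, 323 and 278 CPM in 6j treated libraries (log2 fold change 0.59, adjusted p = 0.0116). FADS3, a related desaturase, rose from 22.8 ± 2.82 to 35.4 ± 4.42 CPM (0.64, adjusted p = 0.0201). FADS2, which acts before FADS1, had 0.42 (adjusted p = 0.0836). FADS2 shares exons with FEN1 on its strand, and FADS1 and FADS2 overlap each other on opposite strands, so their counts are not certain to be separate. edgeR called no gene among 12 other lipoxygenases, their partners and cyclooxygenases, of which 4 had an unadjusted p under 0.05 (26.2% of all rows). PTGES2, a prostaglandin E synthase, had a log2 fold change of −0.56 (adjusted p = 0.0113), PEBP1, a lipoxygenase binding protein, −0.30 (adjusted p = 0.0600), and the cyclooxygenase PTGS2 0.59 (adjusted p = 0.0757). DESeq2 called PTGS2 (adjusted p = 0.00882), which had 34.8, 41.3 and 40.7 CPM in non-treated and 47.3, 52.1 and 76.9 CPM in 6j treated libraries.

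Of 11 genes of microsomal electron transfer and NADPH oxidases, CYP51A1, a sterol demethylase that receives electrons from POR, rose from 142 ± 21.6 to 236 ± 38.5 CPM (log2 fold change 0.73, adjusted p = 0.0184). CYP51A1 shares exons on its strand with other annotated genes. CYBA, an NADPH oxidase subunit, had −0.55 (adjusted p = 0.0213) and FDXR, a mitochondrial reductase, −0.48 (adjusted p = 0.183). In the polyamine list no gene of 15 was called by edgeR or DESeq2. An unadjusted p under 0.05 was found for 5 (26.2% of all rows), and 3 had an adjusted p under 0.05 (9.16% of all rows) with changes below 1.5-fold. SMOX, spermine oxidase, had 72.4, 67.5 and 69.0 CPM in non-treated and 95.6, 104 and 95.9 CPM in 6j treated libraries (log2 fold change 0.50, adjusted p = 0.00912). SAT2, a relative of SAT1, had 0.47 (adjusted p = 0.0168) and AZIN1, an inhibitor of antizyme, 0.31 (adjusted p = 0.0393). In the list named lipid peroxide defence (16 genes), SCD, which makes monounsaturated fatty acids, rose from 1538 ± 230 to 3535 ± 449 CPM (log2 fold change 1.20, adjusted p = 0.0036). DHCR7, which consumes dehydrocholesterol, itself a radical-trapping sterol, is known to act against that defence, and it rose from 125 ± 29.8 to 251 ± 27.8 CPM (1.01, adjusted p = 0.0159). The peroxiredoxin PRDX6 had −0.30 (adjusted p = 0.0424). GPX4, which reduces phospholipid hydroperoxides, had 125 ± 4.48 and 127 ± 8.41 CPM (0.02, adjusted p = 0.902).

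**Figure D5:**
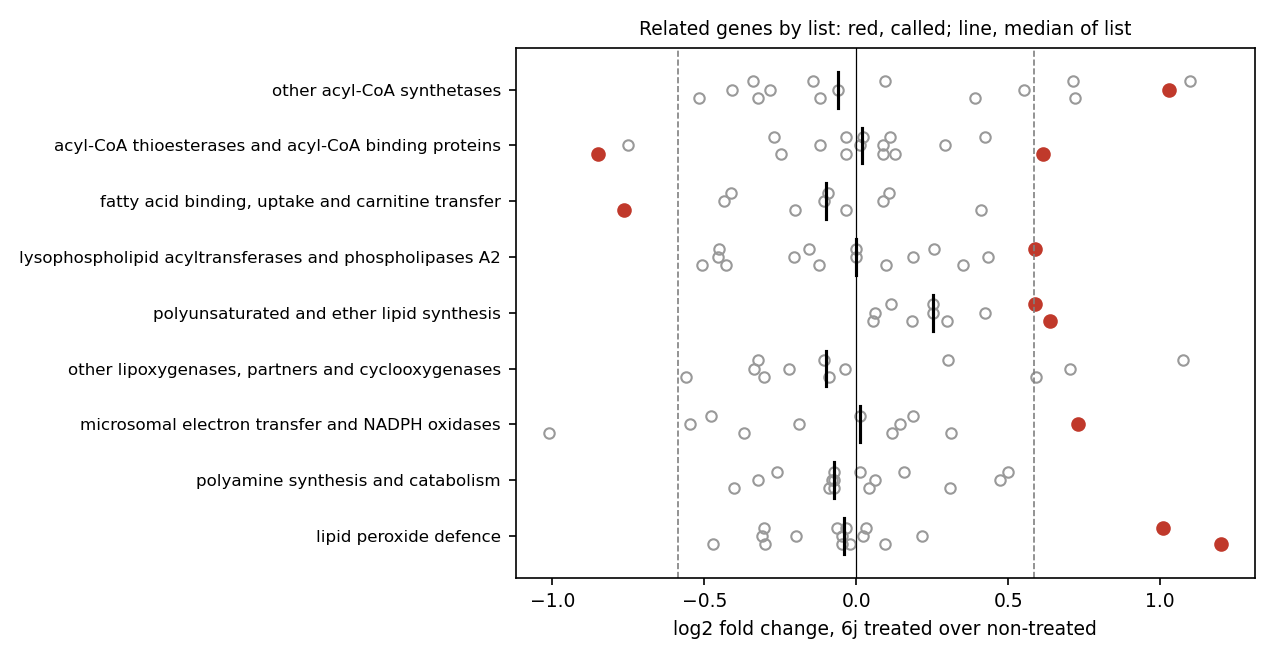
edgeR log2 fold change of the tested genes in the 9 related lists, 1 point per gene, with called genes in red, the list median as a line and the 1.5-fold threshold dashed. The points of polyunsaturated and ether lipid synthesis lie above 0 (median 0.25), and the other medians lie between −0.10 and 0.02.

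The genes whose pattern over the 6 libraries was most like that of ACSL1 were sought among 13358 tested genes. Likeness was the root mean square difference of log2 CPM, after each gene was centred on its own mean, and ACSL1 itself had a root mean square of 0.878 around its mean. The nearest were CSF2RA (0.181), C5AR1 (0.226), C4orf19 (0.238), ZNF93 (0.252) and NPHS1 (0.253). CSF2RA, a cytokine receptor subunit, had 10.3, 19.6 and 8.70 CPM in non-treated and 26.7, 43.0 and 20.5 CPM in 6j treated libraries. Since it was chosen for this likeness, its values are a description only. Its log2 fold change was 1.23 (adjusted p = 0.137), and 1.25 with the replicate block (adjusted p = 1.15e-05). C4orf19, ZNF93 and NPHS1 had at most 1.69 CPM in any library.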

How the data were processed

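Polyadenylated RNA of 3 6j treated and 3 non-treated MHCC-97H libraries was sequenced, and whole-number counts for each gene, not normalized, were deposited by the authors. The submitters' processing notes name HISAT2, StringTie and GRCh38, without versions. The counting program and whether strand was used are not given in the sources used here, and the counts may be rounded estimates. The members and lists were chosen with earlier results of these data known. Groups followed the labels.

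Counts were used as deposited. Rows were filtered by filterByExpr (10 counts in enough libraries and 15 in total), TMM factors were computed, and a robust quasi-likelihood model with no covariate was fitted to 15957 rows in edgeR 4.0.16 (limma 3.58.1, R 4.3.3). Adjusted p in the text come from this fit unless another is named. Standard errors of log2 fold changes were derived from the F statistic. The log2 CPM had a prior count of 2. CPM divide counts by the library total over the rows kept by the filter, multiplied by the TMM factor of the library. Total counts were 31533403 to 38018349, which sets the counting error but not the spread between libraries. DESeq2 1.42.0 was run as another test, with missing adjusted p values kept as missing. The groups share replicate numbers. What a number marks is not stated, but deviations from the group means correlated at 0.171 to 0.312 for the same number and at most 0.0795 for different numbers, so the numbers were treated as pairing the libraries and a fit with the replicate block is given. No library was a copy of another, since replicates differed by a chi-square of at least 22.2 per gene.

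Coordinates and exon lengths came from GENCODE version 29 (GRCh38). Shares and differences within a library were compared by exact permutation in Python 3.11.15 with scipy 1.17.1. Beside the 10 members, the text names of each list the called genes, up to 3 by adjusted p, the 5 genes nearest to ACSL1, GPX4 and the markers. The GC box was added to the motifs after the sequences had been seen. Other normalizations, filters, prior counts, lengths and thresholds, and leaving out each library, were alternatives. DESeq2 with the block, the block with a replicate number left out and the block without a fold threshold were chosen after seeing the data. The fits were tested on simulated data.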

Additional observations from a re-analysis of the deposited data

How the results depend on the processing

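In the edgeR fit used in the text, with TMM factors and without the block, no tested member had an adjusted p under 0.05. Some other fits without the block gave a lower adjusted p. DESeq2 without the block gave 0.000151 for ACSL1, 0.0139 for ACSL4 and 0.0359 for SAT1. Of 119 alternative fits of the 7 tested members, 21 brought the adjusted p under 0.05 and 2 turned the sign. Within the fits with the replicate block, the adjusted p of ACSL3 was 0.0590 without number 1 and that of ACSL4 0.0657 without number 2. The number of members called was 0, and it was 1 (ACSL1) with DESeq2, with the replicate block, with DESeq2 and the block, with the block and replicate number 1, 2 or 3 left out, and with an unadjusted p and the 1.5-fold threshold. It was 3 with the block and no fold threshold. Leaving out 1 library gave 0 to 1. The cause of these differences was not tested. The other pathway genes called were 10, and 11 with the replicate block. Without a fold threshold they were 19 of 120 tested genes (9.16% of all rows), and 48 with the block as well (26.9% of all rows). Leaving out 1 library gave 2 to 12. The ACSL5 log2 fold change ran from −0.17 to 0.56 over the libraries left out and was −0.17 without non-treated replicate 3 and −0.10 without 6j treated replicate 2. The change of ACSL4 minus ACSL3 ran from −0.16 to 0.14 and was positive without non-treated replicate 3 (0.14) and 6j treated replicate 1 (0.12). The change in the ACSL4 share of the pool ran from −3.98 to 2.34 percentage points and was positive without the same libraries (2.34 and 1.27). The gain in the ACSL1 share ran from 1.02 percentage points (without 6j treated replicate 2) to 2.16, and that in ACSL1 minus ACSL3 from 0.82 (without the same library) to 1.37. Pairing by replicate number cannot move these differences of means. With 3 libraries a group, permutations cannot give p under 0.1. ALOX5, ALOX15 and ACSL6 had too few counts to test.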

Other observations

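Beside the genes named by rule, 2 genes of the related lists were called with the replicate block and not without it. They were chosen after their values were seen. ACSBG1, a very long-chain acyl-CoA synthetase, had a log2 fold change of 0.68 with the block (adjusted p = 0.0457). ACOT11, an acyl-CoA thioesterase, had −0.79 (adjusted p = 0.0191).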
